A study of Mus musculus with 6 samples.

Results

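Dividing cells were examined among mouse iGMPs in which the histone chaperone CAF-1 had been depleted for 96 h. iGMPs are granulocyte-macrophage progenitors from the bone marrow of C57BI/6 mice (spelled as in the sample descriptions), carrying a GFP reporter under the lysozyme gene and held in self-renewal by HOXA9 fused to an estrogen receptor domain. The members are 317 of the 911 kept cells of the CAF-1 OFF 96 h library, and of 5872 kept cells in all 6 libraries. They were selected on their summed UMIs (unique molecular identifiers, 1 per captured transcript molecule) of 10 genes of the G2 and M phases, Top2a, Mki67, Cenpf, Ube2c, Birc5, Cdk1, Ccnb1, Tpx2, Nusap1 and Plk1. A cell with at least 10 such UMIs is in the high class and a cell with at most 2 is in the low class, which holds 312 cells. The remaining 282 cells, with 3 to 9 UMIs, are in neither class. The question put to these data was how genes of blood lineages differ between the classes.

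In the CAF-1 OFF arm, a clonal line carried a hairpin RNA against Chaf1b, the gene of a CAF-1 subunit, that is switched on by IPTG. Estradiol stayed in the medium, so that HOXA9 remained active at 0, 48 and 96 h. In the HOXA9 OFF arm a clone with a control hairpin was kept without estradiol for 0, 48 or 96 h, which inactivates the fusion protein and lets cells mature towards neutrophils. Live cells were sorted and 1 droplet library was made for each time point of each arm, so no difference below was tested between conditions, and each interval covers counting error only. Because the cells of a class come from 1 library and were chosen by these counts, the differences between classes are descriptions of this library.

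CAF-1 places new histones H3 and H4 on DNA behind the replication fork. Cells in late G2 and in mitosis carry high levels of a group of transcripts that are made late in the cycle, among them those of topoisomerase Top2a, cyclin B1 (Ccnb1), the kinases Cdk1 and Plk1, and Ube2c, the ubiquitin-conjugating enzyme of the anaphase-promoting complex. Granulocyte-macrophage progenitors normally divide while they express granule genes such as Elane and Mpo, and cells of the granulocyte lineage leave the cell cycle as they mature. Megakaryocyte genes such as Pf4 and erythroid genes such as Gfi1b belong to other branches of blood formation.

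Many late cell cycle genes are known to be held silent in resting cells through a promoter element called CHR and to be activated through CCAAT boxes, the binding sites of NF-Y. The stretch upstream of the transcription start is therefore printed for 3 of the genes used for the selection, and for H3f3b, a histone H3.3 gene that differed between the classes. Sequences are from RefSeq (GRCm38.p6, the same mouse assembly as the deposited data), read 5′ to 3′ along the gene and ending at the base before the start. Capitals mark TTTGAA (the letters searched for CHR) and CCAAT on either strand. TTCAAA and ATTGG are the same motifs read on the opposite strand. Only these exact letters were searched, so any other spelling of either motif would not be marked or counted. The motifs share no bases in these windows.
Ube2c, chr2:164769819-164769928, plus strand: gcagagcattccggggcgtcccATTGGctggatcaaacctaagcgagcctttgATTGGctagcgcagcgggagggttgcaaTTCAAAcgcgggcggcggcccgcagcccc
Cdk1, chr10:69352913-69353022, minus strand: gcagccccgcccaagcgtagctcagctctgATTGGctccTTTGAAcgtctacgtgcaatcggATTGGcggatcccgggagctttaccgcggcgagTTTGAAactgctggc
Ccnb1, chr13:100786487-100786596, minus strand: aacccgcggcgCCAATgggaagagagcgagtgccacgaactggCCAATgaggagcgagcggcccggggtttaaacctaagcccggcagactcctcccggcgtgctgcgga
H3f3b, chr11:116024505-116024754, minus strand: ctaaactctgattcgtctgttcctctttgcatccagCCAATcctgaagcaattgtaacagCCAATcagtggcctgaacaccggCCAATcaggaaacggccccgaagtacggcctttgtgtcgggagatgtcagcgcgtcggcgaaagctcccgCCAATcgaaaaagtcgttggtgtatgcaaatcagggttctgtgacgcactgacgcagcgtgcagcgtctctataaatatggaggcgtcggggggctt

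The windows of Ube2c, Cdk1 and Ccnb1 are 110 bases long and that of H3f3b is 250, so their counts are not comparable. The Ube2c window held 1 TTTGAA and 2 CCAAT boxes, that of Cdk1 2 of each, and that of Ccnb1 2 CCAAT boxes. That of H3f3b held 4 CCAAT boxes, the nearest 97 and the next 167 bases before the start. Over the 250 bases before the start, CCAAT was found in 7 of 9 promoters of the selection genes (77.8%), in 19 of 23 promoters of other G2/M genes (82.6%) and in 33.8% of all 32851 promoters. TTTGAA was found in 4 of the 9 (44.4%), in 8 of the 23 (34.8%) and in 16.0% of all promoters. Both motifs together were found in 44.4%, 30.4% and 5.55%. For genes of the lineage lists below, 38.3% of 81 promoters held CCAAT, 17.3% held TTTGAA and 6.17% held both. S phase genes had CCAAT in 16 of 24 promoters (66.7%) and TTTGAA in 3 (12.5%). Genes counted at 96 h, as defined below, had them in 36.6% and 10.9% of 4587 promoters. Those called higher, such as H3f3b, had them in 43.1% and 21.2% of 397. Promoters were at hand for 9 of the 10 selection genes, 21 of 25 other G2/M genes and 72 of 86 lineage genes. They were at hand for 21 of 25 S phase genes, 3627 of 4669 counted genes and 321 of the 425 called higher. A match of these letters is a description of the window and not of binding.

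The summed UMIs of the 10 selection genes had no gap between the classes. In the high class they ran from 10 to 62 with a median of 20, and in the low class 142 of 312 cells had 0. At the edges, 23 cells held exactly 10 and 30 cells held 9, while 69 cells held 2 and 57 held 3. The cells just inside the high class had H1fx at 474 CPM (CPM, the summed UMIs of a gene scaled to the total UMIs of the class), and those just outside at 422 CPM. The cells at 2 UMIs had it at 113 CPM and those at 3 at 159 CPM. Prg2, described below, was at 1020 CPM in the cells with 10 UMIs and 182 CPM in those with 9. It was at 195 CPM with 2 UMIs and 433 CPM with 3. At both edges it was thus higher on the side of more UMIs, against its lower level in the high class as a whole. Most Prg2 UMIs lay in few cells, as given below, and how many cells set these edge values was not tested. Pf4 was at 2567 and 2084 CPM on either side of the upper edge and at 2712 and 2164 CPM on either side of the lower. The classes are thus ranges along a continuous scale.

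**Figure D1:**
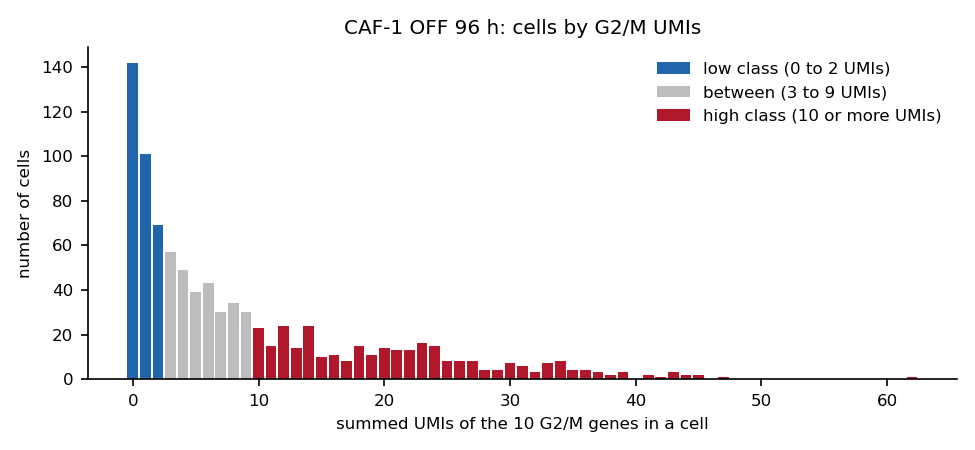
Number of cells of the CAF-1 OFF 96 h library (y axis) by the summed UMIs of the 10 G2/M genes (x axis), with the low class in blue, the cells between in gray and the high class in red. The counts fall from 142 cells at 0 UMIs without a break at 3 or at 10 UMIs.

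A sum of UMIs grows with the depth of a cell, and high class cells had a median of 7124 UMIs and 2300 genes, against 4591.5 UMIs and 1664 genes in the low class. Depth entered the selection, so depth and class cannot be told apart by this rule, and values below are given as CPM or in cells thinned to equal depth. The share of UMIs from mitochondrial genes was 5.75% in the high and 5.90% in the low class, and that from ribosomal protein genes 25.6% and 28.0%. Scrublet, which looks for droplets with 2 cells, called 3 high class and 2 low class cells. None of the 317 barcodes was also kept in another library. The filters on genes and mitochondrial UMIs together removed 155 barcodes of this library, of which 10 had at least 10 UMIs of the selection genes.

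The label of the high class was checked on genes that the selection did not use. A list of 25 other G2/M genes summed to 3842 CPM in the high and 1048 CPM in the low class, a fold of 3.67 (95% interval 3.47 to 3.87). A gene was counted if its CPM averaged 20 or more over both classes, and was called higher or lower if its ratio, after adding 10 CPM to each class, was at least 1.5-fold. Of 22 such G2/M genes, 21 were higher in the high class and 0 lower, where 9.1% of all 4669 genes counted were higher and 3.79% lower. The median log2 ratio was 2.09, and 0.02 over all genes. The kinase Aurka was at 115 CPM against 8.35, the anaphase activator Cdc20 at 190 against 30.6, cyclin A2 (Ccna2) at 167 against 13.9, and Cenpa, the centromeric H3 variant, at 901 against 232. Cks2, a binding partner of Cdk1, was the gene within the limit, at 589 against 394 CPM. The classes are therefore called high or low in G2/M transcripts. G2 was not separated from mitosis.

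Genes of G1 and S phase showed a split. Of 22 S phase genes counted, 4 were higher and 10 lower in the high class, with a median log2 ratio of −0.37. The lower genes included the 6 subunits of the MCM helicase, which is loaded at origins in G1. Mcm2 was at 31.4 CPM in the high and 85.6 CPM in the low class. Ung, a uracil glycosylase known to peak near the start of S phase, was at 6.11 against 94.0 CPM, the largest difference of the list (log2 ratio −2.69). The higher genes make or use nucleotides for replication. Rrm1 and Rrm2, the subunits of ribonucleotide reductase, were at 105 against 42.5 and at 324 against 177 CPM, Tyms at 191 against 118, and the primase Prim1 at 66.3 against 23.0. Summed over the list, S phase genes were at 2315 CPM in the high and 2414 CPM in the low class (fold 0.96, 0.92 to 1.00). Among cells of 5772 to 6271 UMIs Tyms turned, to a log2 ratio of −0.13, and among cells with at most 5% mitochondrial UMIs Mcm3 was at 0.013. Before depletion, at 0 h in this arm, 1 of 24 S phase genes counted was higher and 10 were lower. The log2 ratio of Ung was −3.19 there.

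Genes that restrain the cycle did not share a direction. Of 6 counted, 4 were higher in the high class. Cdkn2c and Cdkn2d, inhibitors of Cdk4 and Cdk6, were at 121 against 25.1 and at 233 against 82.1 CPM, Cdkn1a (p21) at 36.7 against 11.8, and Ccng2 at 36.2 against 11.1. Btg1, an antiproliferative gene, was lower, at 30.1 against 94.6 CPM. Cdkn2a was alike, at 649 against 643 CPM. In the 0 h library of the arm, Cdkn2d (log2 ratio 1.42) and Ccng2 (0.98) were already higher in the high class, and Cdkn2c was at 1.01 but under the minimum level. Cdkn1a and Btg1 had log2 ratios of −0.08 and 0.02 there and 1.10 and −1.38 at 96 h, while in HOXA9 OFF at 0 h Btg1 was lower (−0.77).

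The hairpin target was low in both classes at 96 h. Chaf1b was at 5.24 CPM in the high class (12 UMIs) and 9.05 CPM in the low class (13 UMIs), a fold of 0.58 with an interval of 0.24 to 1.38. At 0 h the classes had 18.3 and 43.2 CPM. The partner subunit Chaf1a was at 18.3 and 20.2 CPM at 96 h. Of 4 histone chaperone genes counted, Asf1b, which hands H3 and H4 to CAF-1, was higher in the high class, at 179 against 73.1 CPM. Rbbp4, Asf1a and Nasp were within the limit, and 0 were lower.

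The share of cells in the high class was 34.8% at 96 h (317 of 911, exact 95% binomial interval 31.7 to 38.0). It was 30.3% (26.8 to 34) at 0 h and 38.7% (35.6 to 41.9) at 48 h in CAF-1 OFF. The HOXA9 OFF libraries had 39.3% at 0 h, 8.83% at 48 h and 0.0662% at 96 h, where 1 of 1510 cells qualified. With each cell thinned to 2000 UMIs and a cut of 4 UMIs, the CAF-1 OFF shares were 24.0%, 34.9% and 30.2%. The HOXA9 OFF shares were then 26.8%, 9.81% and 0 of 792 cells, which by the exact interval allows up to 0.465%. At equal depth the share in CAF-1 OFF was thus not below that at 0 h at either time. The same filters removed 463 of 1110 barcodes at 0 h in CAF-1 OFF, and their part in that share was not tested.

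To ask how lineage genes differ, 9 lists with 86 genes of progenitors, granulocytes, monocytes, megakaryocytes, erythroid cells, mast cells or basophils, eosinophils and lymphoid cells were read. In the 96 h library 68 of the genes had a UMI and 41 were counted. Of these, 6 were higher in the high class, 4 were lower and 31 were within 1.5-fold, with a median log2 ratio of 0.01 beside 0.02 for all genes. The 6 of 41 higher (against 9.1% of all genes) were Car2, Gata2, Gfi1b, Lyz1, Ms4a6c and S100a8. The 4 lower (against 3.79%) were Fcnb, Ly6c2, Prg2 and Prg3.

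**Figure D2:**
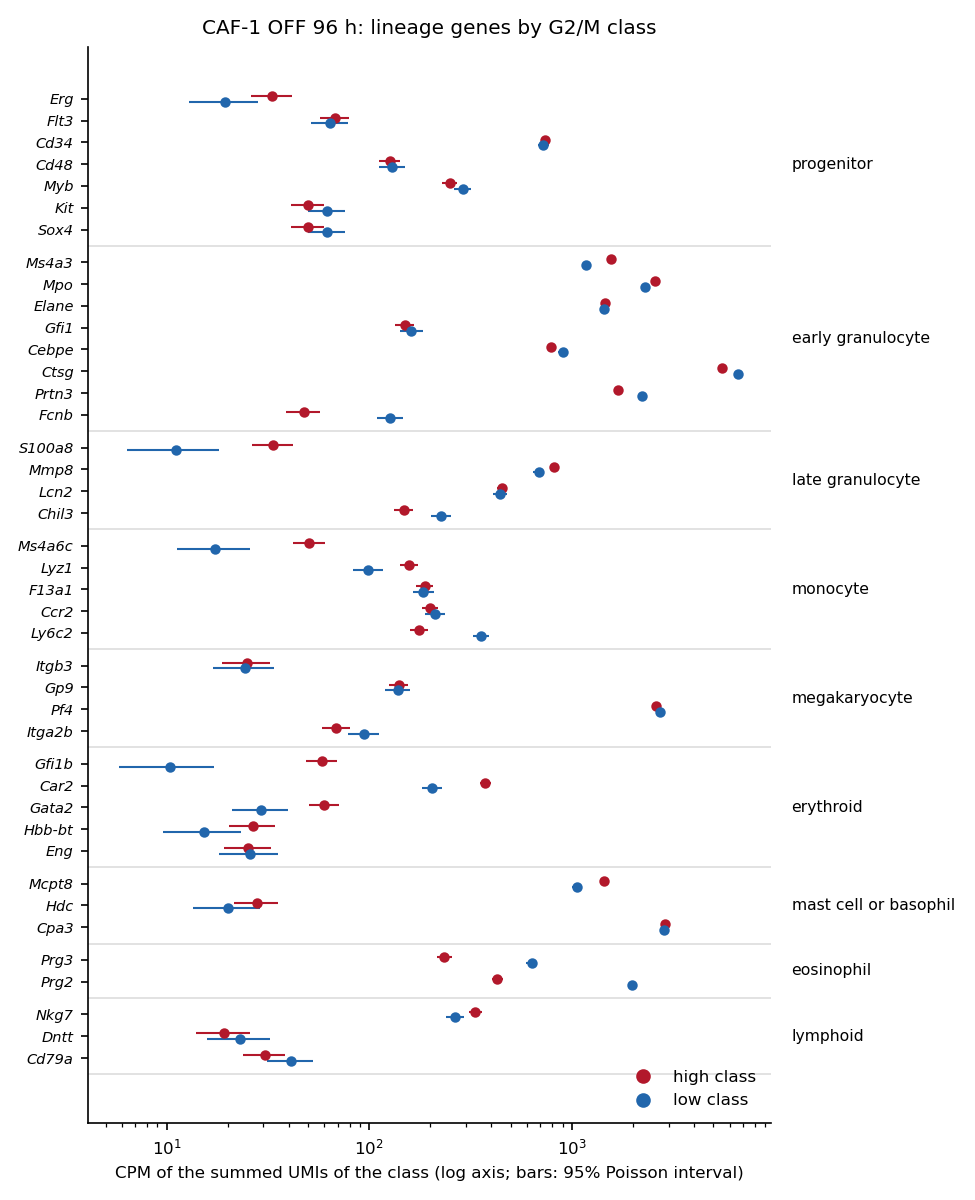
Level of each of the 41 counted lineage genes in the high (red) and low (blue) class of CAF-1 OFF at 96 h, in CPM on a log axis, with exact 95% Poisson intervals, grouped by list. Most pairs lie close together, such as Pf4 at 2607 and 2709 CPM, while Gfi1b and Prg2 stand apart in opposite directions.

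Progenitor genes were within 1.5-fold between the classes, with 0 of 7 counted higher and 0 lower. Cd34, a surface marker of blood progenitors, was at 738 CPM in the high and 724 CPM in the low class, a fold of 1.02 (0.94 to 1.10). Flt3, a cytokine receptor, was at 67.6 and 64.0 CPM. The receptor Kit was at 49.7 and 61.9 CPM, and Myb, a transcription factor of dividing progenitors, at 249 and 289 CPM. Erg came closest to the limit, at 33.2 against 19.5 CPM (log2 ratio 0.55), and was past it in cells with the classes redefined by share of UMIs. In thinned cells, 84.8% of the high class and 81.6% of the low class had a Cd34 UMI.

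Early granulocyte genes, most of which code for granule proteins, were also near each other. Elane (neutrophil elastase) was at 1462 and 1441 CPM, a fold of 1.01 (0.96 to 1.07). Mpo (myeloperoxidase) was at 2569 and 2285 CPM, Ctsg (cathepsin G) at 5520.3 and 6623 CPM, and Prtn3 (proteinase 3) at 1699 and 2214 CPM. Ms4a3, a marker of granulocyte-macrophage progenitors, was at 1554 and 1177 CPM. These intervals exclude equality for Mpo (1.08 to 1.17), Ms4a3 (1.25 to 1.40), Ctsg (0.81 to 0.86) and Prtn3 (0.73 to 0.80), though each lies inside 1.5-fold. Cebpe and Gfi1, transcription factors of the granulocyte line, were at 787 and 901 CPM and at 150 and 161 CPM. Fcnb (ficolin B) was the exception, at 47.6 CPM in the high and 127 CPM in the low class, a fold of 0.38 (0.29 to 0.48). Among 34 high and 21 low class cells of 5772 to 6271 UMIs its ratio turned, to a log2 value of 0.50, and among cells of 4000 to 8000 UMIs it was −0.43, within the limit.

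Late granulocyte genes stayed low or alike in both classes. Of 12 genes, 10 had a UMI and 4 were counted. Lcn2, a protein of secondary granules, was at 452 and 444 CPM, and the collagenase Mmp8 at 817 and 688 CPM. S100a8, a calcium-binding protein that is abundant in neutrophils, was higher in the high class, but at 33.6 CPM (77 UMIs) against 11.1 CPM (16 UMIs). At 48 h it went the other way, with a log2 ratio of −0.98. Ltf and Ly6g, markers of mature neutrophils, were at 0 UMIs in both classes. Chil3 was at 148 and 227 CPM, and crossed the limit with other settings.

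Monocyte genes went both ways. Ly6c2 was at 176 CPM in the high and 357 CPM in the low class, a fold of 0.49 (0.43 to 0.56), and the log2 ratios at 0 and 48 h were −1.61 and −0.91. Among the 57 high and 59 low class cells with at most 5% mitochondrial UMIs the ratio turned, to a log2 value of 0.12. Ms4a6c was at 50.6 against 17.4 CPM, and Lyz1 (lysozyme) at 157 against 98.8 CPM, which in thinned cells came to a log2 ratio of 0.44, within the limit. Lyz1 has a near-identical copy, Lyz2, at 0 and 1 UMIs, so that reads may be shared out wrongly within the pair. The chemokine receptor Ccr2 was at 200.3 and 211 CPM and F13a1 at 188 and 185 CPM. Csf1r, the receptor that marks monocytes, had 5 and 3 UMIs.

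Megakaryocyte genes, which the CAF-1 OFF cells express at 96 h, were carried by the high class at levels like those of the low class. Of 4 counted, 0 were higher and 0 lower. Pf4, a platelet chemokine, was at 2607 CPM in the high class (5975 UMIs) and 2709 CPM in the low class (3893 UMIs), a fold of 0.96 (0.92 to 1.00). Itga2b, the platelet integrin subunit, was at 68.5 and 93.9 CPM, its partner Itgb3 at 24.9 and 24.4 CPM, and Gp9 at 140 and 138 CPM. In cells thinned to 2900 UMIs the median was 7 Pf4 UMIs in the high class and 6 in the low class, and 95.9% and 92.2% of cells had at least 1. Gp6 and Gp1bb were at 0 UMIs in both.

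Among the lineage lists, that of erythroid genes had most members higher in the high class, 3 of 5 counted and 0 lower, with a median log2 ratio of 0.83. The list summed to 576 CPM against 310 CPM (fold 1.85, 1.66 to 2.07). Car2 alone made up 375 and 204 CPM of these sums, so the fold of the sum mostly follows that gene. Gfi1b, a transcription factor of the erythroid and megakaryocyte lines, was at 58.5 CPM (134 UMIs) in the high and 10.4 CPM (15 UMIs) in the low class, a fold of 5.60 (3.28 to 10.3). Car2, a carbonic anhydrase, was at 375 against 204 CPM (1.84-fold, 1.61 to 2.11). Gata2, a factor of early progenitors, was at 59.8 against 29.2 CPM at 96 h (2.05-fold, 1.44 to 2.96). Gata2 was also higher at 0 h (37.3 against 13.7 CPM, 2.72-fold, 1.48 to 5.40), and in thinned cells its log2 ratio at 96 h was 0.43, within the limit. The defining genes of red cell maturation were at or near 0, with Alas2 and Car1 at 0 UMIs in both classes, Klf1 at 6 and 0 UMIs and Hba-a1 at 0 and 4 UMIs. Gata1 was alike, at 14.4 and 16.0 CPM. In thinned cells, a Car2 UMI was found in 53.5% of the high and 31.8% of the low class.

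Mast cell, basophil and lymphoid genes had 0 members past the limit, of 3 and 3 counted. Cpa3 (carboxypeptidase A3) was at 2885 and 2864 CPM, a fold of 1.01 (0.97 to 1.05), and the basophil protease Mcpt8 at 1435 and 1055 CPM. The mast cell proteases Cma1, Tpsb2 and Mcpt4 were at 0 UMIs in both classes. Nkg7, a granule protein of lymphoid and other cells, was at 334 and 266 CPM and Cd79a at 30.5 and 41.1 CPM, while Cd3e, Il7r and Ms4a1 were at 0 UMIs. The 7 genes chosen because blood cells lack them had 0 UMIs in both classes.

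The eosinophil list stood apart. Its 2 counted genes, the granule proteins Prg2 and Prg3, were both lower in the high class. Prg2 was at 429 CPM against 1973 CPM (fold 0.22, 0.20 to 0.23) and Prg3 at 235 against 634 CPM (0.37, 0.33 to 0.41). Epx, Ear1, Ear2 and Ear6, further eosinophil genes, were at 0 UMIs. Most of the Prg2 UMIs lay in few cells. Cells with at least 20 Prg2 UMIs numbered 7 of 317 (2.21%, 0.89 to 4.50) in the high class, 12 of 282 (4.26%) between the classes and 18 of 312 (5.77%, 3.45 to 8.96) in the low class. They held 90.4% and 95% of the Prg2 UMIs of the high and low class. Without these cells Prg2 was at 41.9 and 105 CPM and Prg3 at 185 and 240.0 CPM (log2 ratios −1.14 and −0.36, the latter within the limit), while Ly6c2 stayed at 177 and 367 CPM. The cells rich in Prg2 carried Pf4 at 2912 CPM, beside 2465 CPM in the other cells of the library, and Mmp8 at 1351 beside 701 CPM. Larger differences were seen for Prg3 (4885 beside 191 CPM), Gata1 (76.5 beside 10.0 CPM, 15 UMIs) and Prss34 of the mast cell or basophil list (86.7 beside 3.66 CPM, 17 UMIs). Ccr2 (35.7 beside 207 CPM) and Mpo (1469 beside 2451 CPM) were lower in them. The intervals of the shares of such cells overlap between the classes, and the cells were picked on Prg2 itself after its values were seen.

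Myeloid transcription factors were read as a separate list. Of 6 counted, Spi1 (PU.1), which drives myeloid maturation, was lower in the high class, at 247 against 493 CPM (fold 0.50, 0.45 to 0.56). Its log2 ratio was −0.20 at 0 h and −0.85 at 48 h. Cebpa was alike, at 74.6 and 71.0 CPM, and Cebpb at 177 and 129 CPM. Runx1 and Hoxa9 were within the limit. Elf1 lay just inside it, at 36.2 and 59.2 CPM (83 and 85 UMIs, log2 ratio −0.58). In thinned cells its log2 ratio was −1.05, past the limit, and over the alternatives it ran from −1.05 to −0.18.

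Whether the cells carry genes of several lineages at once was asked in cells thinned to 2900 UMIs, which left out 1 high class and 29 low class cells. UMIs of an early granulocyte gene together with Pf4 or Itga2b were found in 304 of 316 high class cells (96.2%, 93.5 to 98.0) and in 261 of 283 low class cells (92.2%, 88.5 to 95.1). The difference was 3.98 percentage points (interval 0.0301 to 8.15), and with at least 2 UMIs of each kind the shares were 91.5% and 85.5%. Without thinning they were 98.7% and 91.7%. With an erythroid gene required as well, the shares were 65.5% (60.0 to 70.7) and 45.9% (40.0 to 51.9), or 88.3% and 56.1% without thinning. At 0 h the shares for the first 2 kinds were 7.14% in the high and 5.36% in the low class, and at 48 h 46.2% and 47.8%. At 96 h each thinned cell of both classes had an early granulocyte UMI, so that requirement left out no cell. The 96.2% and 92.2% are therefore the shares with Pf4 or Itga2b alone. An erythroid UMI by itself was found in 67.4% of the high and 48.1% of the low class at 96 h. At 0 h it was already found in 37.8% and 32.7%, while all 3 kinds together were found in 1.53% and 1.79%. Since nearly all cells of this library had Pf4 UMIs, no cells that lack the gene could show the level of free RNA, and its part in these shares was not tested.

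**Figure D3:**
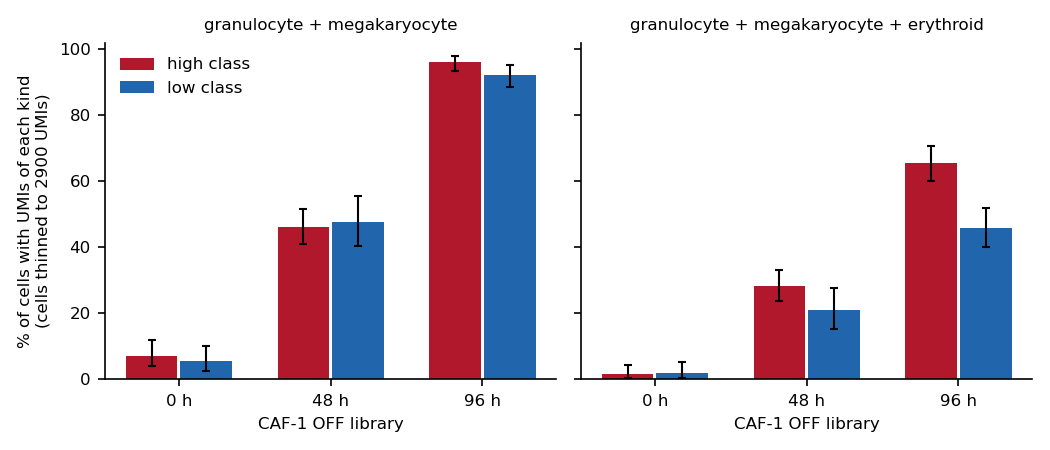
Percent of cells, each thinned to 2900 UMIs, with UMIs of an early granulocyte gene and of Pf4 or Itga2b (left), and also of an erythroid gene (right), in the high (red) and low (blue) class of the 3 CAF-1 OFF libraries, with exact 95% binomial intervals. The classes overlap at 0 and 48 h, and at 96 h the high class is at 65.5% and the low class at 45.9% on the right.

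Genes known from earlier results on these libraries to go up in CAF-1 OFF were read next, and since they were chosen on these data their direction over time is no independent finding. Of 4 counted, 2 were higher in the high class and 0 lower. Cxcl3, a neutrophil-attracting chemokine, was at 208 CPM (476 UMIs) against 18.1 CPM (26 UMIs), a fold of 11.5 (7.74 to 17.8). It was found in 25.3% of thinned high class cells and 3.53% of low class cells. Tgm3, a transglutaminase, was at 492 against 226 CPM (2.17-fold, 1.92 to 2.47). Slpi, a protease inhibitor of granulocytes, was at 4759 and 3969 CPM. Stfa1, which has near-identical copies, was at 274 and 279 CPM. Tub was at 16.6 and 7.65 CPM, under the minimum level.

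Histone variants were the group besides G2/M genes with most members higher, 5 of 7 counted and 0 lower, with a median log2 ratio of 0.90. H3f3b, 1 of the 2 genes for the replacement histone H3.3, was at 7626 CPM in the high and 2809 CPM in the low class, a fold of 2.72 (2.62 to 2.81). H3f3a, the other H3.3 gene, was at 2562 and 2317 CPM (1.11-fold, 1.06 to 1.15). H1fx, a linker histone variant, was at 493 against 82.1 CPM (6.01-fold, 4.97 to 7.33). H2afx was at 277 against 58.5 CPM, H2afz at 4991 against 2731 CPM and H2afv at 760 against 402 CPM. H2afy (macroH2A) was within the limit, at 702 and 851 CPM. In thinned cells the median was 20 H3f3b UMIs in the high and 7 in the low class. Histone genes have near-identical copies, so single values are uncertain.

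The difference in H3f3b and H1fx between the classes was small before depletion. At 0 h H3f3b was at 2098 CPM in the high and 1660.2 CPM in the low class, at 48 h at 7154 and 2809 CPM, and at 96 h at 7626 and 2809 CPM. Between 0 and 96 h that is 3.64-fold (3.50 to 3.77) in the high class and 1.69-fold (1.60 to 1.79) in the low class. H1fx was at 53.2 and 40.1 CPM at 0 h, 282 and 101 CPM at 48 h, and 493 and 82.1 CPM at 96 h. The folds to 96 h were 9.28 (7.46 to 11.7) and 2.05 (1.41 to 3.04). H2afz had 4355 and 3786 CPM at 0 h, and at 96 h was at 1.15-fold of that in the high and 0.72-fold in the low class. Each time point is 1 library, so the spread between libraries is unknown.

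Car2 stood apart by class only at 96 h, and Cxcl3 already at 48 h. Car2 was at 93.5 and 98.0 CPM at 0 h, 240 and 218 CPM at 48 h, and 375 and 204 CPM at 96 h. Cxcl3 had 0 UMIs in both classes at 0 h, and was at 53.1 and 6.64 CPM at 48 h. Tgm3 had 0 UMIs at 0 h and was at 147 and 70.9 CPM at 48 h. Pf4 did not part by class, with 22.0 and 27.4 CPM at 0 h, 401 and 478 CPM at 48 h, and 2607 and 2709 CPM at 96 h, which is 119-fold (85.5 to 169) in the high and 98.9-fold (67.4 to 152) in the low class. Elane was at 84.9 and 192 CPM at 0 h, lower in the high class, and close at 96 h, so that the fold was 17.2 (14.5 to 20.5) in the high and 7.51 (6.45 to 8.79) in the low class. Cpa3 was at 171 and 259 CPM at 0 h and at 2885 and 2864 CPM at 96 h, folds of 16.9 (14.96 to 19.1) and 11.04 (9.71 to 12.6).

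**Figure D4:**
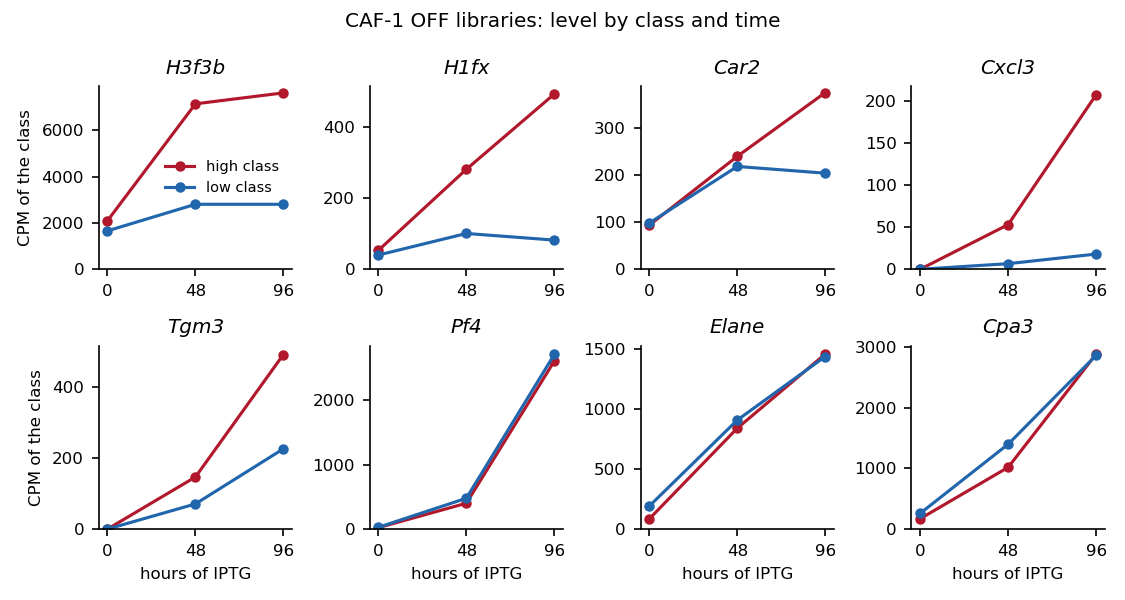
Level in CPM of 8 genes in the high (red) and low (blue) class of the CAF-1 OFF libraries at 0, 48 and 96 h of IPTG, on linear axes, 1 library per point. At 96 h the classes lie close for Pf4, Elane and Cpa3 (2885 and 2864 CPM) and apart for H3f3b (7626 and 2809 CPM), H1fx, Car2, Cxcl3 and Tgm3.

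Among genes in no list, those with the largest ratios were named. The 8 with the largest excess in the high class included Spc25, Pbk, Fam64a, Tuba1b, Kif22, Tubb6 and Fcgr4. Among them were Spc25 (181 against 16.0 CPM) of the kinetochore, the kinesin Kif22 (86.0 against 10.4 CPM) and the tubulins Tuba1b (802 against 155 CPM) and Tubb6 (80.3 against 9.74 CPM). Tubb6 had log2 ratios of 0.29 at 0 h, 1.11 at 48 h and 2.19 at 96 h. Fcgr4, an Fc receptor of myeloid cells, was at 66.3 CPM (152 UMIs) against 8.35 CPM (12 UMIs), and had 0 UMIs in both classes at 0 h.

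The 8 with the largest deficit in the high class were Gpr171, Msrb1, Ltb4r1, Dok3, Xpc, Lta4h, Thbs1 and Chst12. Ltb4r1 (63.3 against 193 CPM) is the receptor for leukotriene B4 and Lta4h (62.0 against 167 CPM) the enzyme that makes this lipid attractant. Msrb1, a methionine sulfoxide reductase, was at 265 against 763 CPM, and Xpc, a sensor of DNA damage, at 216 against 552 CPM. Gpr171 was at 8.29 against 54.3 CPM. In the 0 h library these genes had log2 ratios between −0.58 (Ltb4r1) and 0.22 (Chst12), with Xpc at −0.05, Lta4h at −0.02 and Thbs1 at −0.01.

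The same rule was applied in the other libraries to see what is shared. In CAF-1 OFF at 0 h, 211 of 4623 genes were higher in the high class (4.56%) and 81 lower (1.75%), and at 48 h 247 of 4823 (5.12%) and 111 (2.3%). At 96 h there were 425 of 4669 higher and 177 lower. Of these 425, 100 (23.5%) were also higher at 0 h, which is 47.4% of the 211, and 159 (37.4%) at 48 h, 64.4% of the 247. Of the 177 lower genes, 16 (9.04%) were lower at 0 h, 19.8% of the 81, and 38 (21.5%) at 48 h, 34.2% of the 111. The share of higher genes among those called at 96 h was 70.6%, and 57.1% with TMM and 56.0% with median-of-ratios factors, so the balance of directions depends on the scaling.

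In HOXA9 OFF at 0 h, 280 of 4547 genes were higher (6.16%) and 94 lower (2.07%), and at 48 h, with 124 high and 1175 low class cells, 902 of 4411 (20.4%) and 352 (7.98%). Other G2/M genes were higher in each library, 20 of 20 at 0 h and 21 of 21 at 48 h in HOXA9 OFF. S phase genes were higher in 19 of 19 counted at 48 h in HOXA9 OFF, where they split in CAF-1 OFF at 96 h. They also split in CAF-1 OFF at 0 h (1 higher and 10 lower of 24 counted) and at 48 h (2 and 8 of 24). In HOXA9 OFF at 0 h, 4 were higher and 2 lower of 22 counted. In HOXA9 OFF at 48 h Elane and Mpo were higher in the high class (log2 ratios 1.62 and 1.28), beside 0.02 and 0.17 in CAF-1 OFF at 96 h. Gfi1b and Car2 were under the minimum level there, with 2 UMIs each in the high class and 20 and 63 in the low class, and are not compared. H1fx was higher there too (1.98), and H3f3b was at 0.89. Of 7 histone variants counted there, 6 were higher and 0 lower, with a median log2 ratio of 1.85 beside 0.90 in CAF-1 OFF at 96 h. At 0 h 1 of 7 was higher in each arm. Prg2 was lower in the high class in the 5 libraries compared. Its log2 ratios ran from −5.65 in HOXA9 OFF at 0 h to −1.93 in CAF-1 OFF at 48 h. Cells with at least 20 Prg2 UMIs numbered 0 (high) and 3 (low class) in CAF-1 OFF at 0 h, and 3 and 4 at 48 h. Without them Prg2 was higher in the high class, at 14.7 and 11.7 CPM at 0 h and 34.9 and 10.2 CPM at 48 h. At 0 h, 1 high class cell under this cut held 17 of the 24 Prg2 UMIs of its class. The direction at 0 h thus rests on few UMIs. In HOXA9 OFF Prg2 stayed lower without cells of at least 20 Prg2 UMIs, at 29.9 and 97.1 CPM at 0 h and 474 and 637 CPM at 48 h. None of these differences between libraries was tested.

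**Figure D5:**
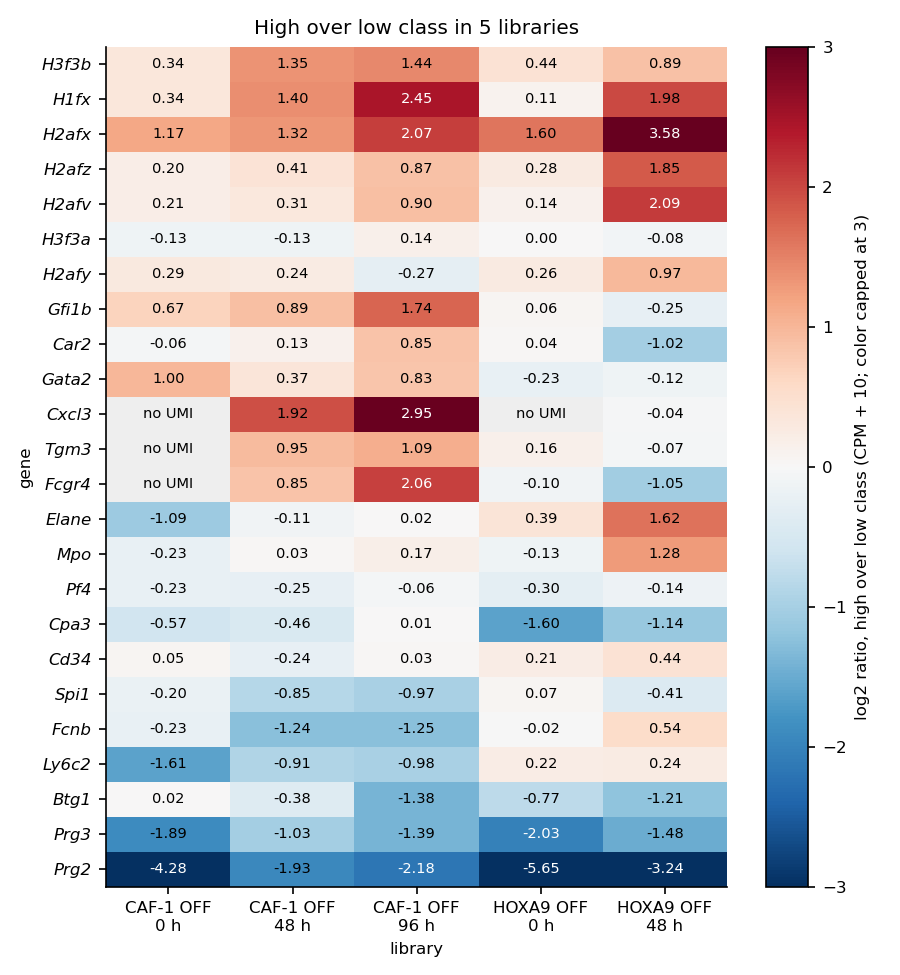
Log2 ratio of the high over the low class, after adding 10 CPM, for 24 genes (rows) in 5 libraries (columns), red where the high class is higher and blue where it is lower; gray cells had no UMI in either class. H1fx goes from 0.34 at 0 h to 2.45 at 96 h in CAF-1 OFF, and Prg2 is below 0 in each column.

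With classes defined by the share of UMIs in the 10 genes, so that deep cells are not favored, the same number of cells per class gave 426 genes higher and 165 lower, and H3f3b, H1fx, Car2, Gfi1b and Prg2 had log2 ratios of 1.30, 2.35, 0.81, 1.69 and −1.99. Among the 230 high and 214 low class cells of 4000 to 8000 UMIs (medians 6770.0 and 5041.5), a range chosen after the data were seen, they were 1.51, 2.52, 0.71, 1.73 and −1.64. In the narrowest range of depth, 5772 to 6271 UMIs with 34 and 21 cells, the ratios were 1.86, 2.67, 0.49, 2.21 and −1.12, so that Car2 was within the limit, as was Ms4a6c at 0.03. In thinned cells they were 1.48, 2.67, 0.78, 1.66 and −2.13.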

How the data were processed

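Single-cell RNA-seq was read from 1 library per group (6 libraries). The authors aligned reads to mm10 (GRCm38) with Cell Ranger (3.0.1 per the labels), and deposited whole-number UMI counts per gene and barcode (7821 barcodes, 27998 genes). Barcodes with 200 to 6000 genes and at most 10% mitochondrial UMIs were kept. Kept cells of a library summed to between 3524285 and 5589486 UMIs. Libraries were assigned by the barcode suffix.

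Counts were summed over the cells of a class and divided by their total (CPM). Log2 ratios add 10 CPM, which understates changes of low genes. Intervals are exact 95% Poisson (CPM) and binomial (shares and folds) intervals and cover counting error only, and the interval of a difference of shares combines both. With 1 library per group there is no test. Genes averaging 20 CPM or more over both classes were counted, without the 10 selection genes. Named genes are members of the gene lists and the 8 with the largest ratio in each direction in no list, with at least 50 CPM in 1 class. Of the latter, 1 is not reported here. The classes and lists were chosen with earlier results of these data known. Cebpd, of the transcription factor list, did not match a gene name. Doublets stayed in, since Scrublet (run in Scanpy 1.11.5) called 125 of 5872 cells (2.13%) and an alternative leaves them out. In HOXA9 OFF at 48 and 96 h it called under 0.5%. 16 kept barcodes occur in more than 1 library. The calculation was tested on simulated data. Python 3.11.15, NumPy 2.4.6, edgeR 4.0.16 (TMM factors only) and DESeq2 1.42.0 (size factors only) were used. Alternatives changed the pseudocount, minimum level, fold, class limits, depth, scaling and cell filters.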

Additional observations from a re-analysis of the deposited data

Results flagged for a closer look

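Irf8, a transcription factor of the monocyte line, had opposite directions in the classes of the CAF-1 OFF libraries at 0 and 96 h, each with a fold interval that excludes equality. Its log2 ratio of the high over the low class was −0.86 at 0 h (14.7 against 34.8 CPM) and 0.60 at 96 h (15.7 against 6.96 CPM, from 36 and 10 UMIs), with −0.19 at 48 h. The difference between the time points was not tested, and the gene was under the minimum level at 96 h.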

How the results depend on the processing

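No paired analysis was possible because each group is 1 library and the results come from no test. The 4 gene counts (425 higher, 177 lower, 6 and 4 for lineage genes), the share of cells and the shared detection were recomputed with other settings. 66 of 90 values stayed within 1.5 times or within the counting interval. A pseudocount of 1 CPM gave 287 genes lower. A pseudocount of 50 CPM gave 168 higher, 42 lower and 2 lineage genes higher. No minimum level gave 823 higher and 10 lineage genes higher, and a minimum of 50 CPM gave 200 higher, 95 lower and 2 lineage genes higher. A 2-fold limit gave 170 higher, 30 lower and 3 lineage genes higher. Classes of at least 8 and at most 4 UMIs gave 113 lower. A total without mitochondrial, ribosomal protein and selection genes gave 323 lower. With at most 5% mitochondrial UMIs (57 and 59 cells) the counts were 743 higher, 529 lower and 7 lineage genes lower, and the difference in shared detection was 12.2 percentage points. Among cells of shared depth (34 and 21 cells) they were 1007 higher and 818 lower. Both of these settings hold few cells. The share of cells in the high class was 30.2% in cells thinned to 2000 UMIs with at least 4 UMIs, 30.7% without a mitochondrial limit, 23.8% at 15 UMIs and 41.8% at 8 UMIs. Of 3230 ratios of named genes 167 changed sign, 4 of them of genes called higher or lower. Mcm3 (0.013) and Ly6c2 (0.12) did so with at most 5% mitochondrial UMIs, and Tyms (−0.13) and Fcnb (0.50) among cells of shared depth, and the cause was not tested. The ratios of H3f3b (1.20 to 1.86), H1fx (2.04 to 2.67), Cxcl3 (1.92 to 3.69), Gfi1b (0.84 to 2.38) and Prg2 (−4.44 to −1.12) kept their sign over 19 alternatives. The median ratio of all genes moved by less than 0.1 with each scaling. Cells of 4000 to 8000 UMIs and cells without many Prg2 UMIs were added after the data were seen. With 15 UMIs of Gfi1b and 26 of Cxcl3 in the low class, depth limits the size of these folds.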
